A study of Mus musculus with 2 samples.

Results

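The mural cells of a single droplet library were split by how much transcript of a lineage reporter they held, and the labelled and unlabelled cells were set side by side. The library was made from the regenerating digit tips of PdgfraCreERT;R26-LSL-TdT mice, in which tamoxifen lets a Cre recombinase driven by Pdgfra switch on the red fluorescent protein tdTomato for good. Of the 1612 cells of this library that passed the filters (3937 in the series), 277 met the rule for mural cells. Of these, 135 were called labelled (tdTomato at 1600 CPM or more), 127 unlabelled (under 800 CPM) and 15 lay between and were left out of the comparisons. UMIs are the molecular tags by which transcripts are counted, and CPM are UMIs of a gene per 1000000 UMIs of the cell or of the summed cells.

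A mural cell had at least 10 UMIs per 10000 of Rgs5, Kcnj8, Abcc9, Higd1b, Myh11 and Actg2 together, at least 1 UMI of Notch3 or Mcam, and under 2 UMIs per 10000 of the endothelial genes Pecam1 and Cdh5. The 6-gene limit was met by 305 cells, the second condition kept 296 of them and the third 277. The members were thus chosen by their measured levels of tdTomato and of 8 mural genes, and those levels are given as a description only. Next to the thresholds, the highest unlabelled cells had 785 and 788 CPM of tdTomato and the lowest labelled cells 1653 and 1763 CPM, and the 6-gene sum was 10.9 per 10000 in the lowest mural cell and 9.95 in the highest cell outside.

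Mice of both lines of the series were 10 to 12 weeks old, received 3 mg of tamoxifen on each of 4 days and lost the digit tip 10 days later. Tissue beyond the cut was taken after 14 days of regrowth. The other line, Lmx1bCreERT2;R26-LSL-TdT, carries the same reporter under a different driver, and its 373 mural cells by the same rule are given as a description. There was 1 library per line with no replicate, the number of animals in each was not given, and no sort for tdTomato was described, so driver, library and animals cannot be told apart. The Pdgfra library had 49084751 UMIs over 5032 barcodes and a median of 18041 UMIs per passing cell, against 20670 in the Lmx1b library, and none of the 10 barcodes that the libraries shared was a mural cell of the Pdgfra library.

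Mural cells wrap small blood vessels. Pericytes sit on capillaries and are recognised by Rgs5, Kcnj8, Abcc9 and Higd1b, while smooth muscle cells of larger vessels add a contractile apparatus that includes Myh11, Actg2 and Acta2. Both depend on PDGF-B from endothelium acting on the receptor Pdgfrb, and both use Notch3, whereas the related receptor Pdgfra is the usual marker of fibroblast-like mesenchyme.

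The cells also held mural markers that the rule did not use. Pdgfrb, the receptor for PDGF-B, was present in 133 labelled cells and in 123 unlabelled ones, at 571 and 721 CPM in the summed counts, against 163 CPM in mesenchymal cells of the library. Acta2, smooth muscle actin, stood at 3805 and 6178 CPM against 400.2 CPM in mesenchymal cells. Rgs5, Myh11, Notch3 and Mcam belong to the mural rule, so their levels follow from the choice of cells and are given as a description. Together they summed to a median of 12185 CPM per labelled cell and 14571 CPM per unlabelled cell. The 6 macrophage markers summed to 38.4 CPM on the labelled and 53.7 CPM on the unlabelled side, at medians of 0 and 36.8 CPM per cell, with Adgre1 at 0 in unlabelled cells, and their part in the results was not tested. The 3 epithelial markers summed to 8.39 and 7.22 CPM in labelled and unlabelled cells.

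Labelled cells made up 48.7% of the mural cells (135 of 277, exact 95% binomial interval 42.7 to 54.8%). By comparison 83.2% (79.7 to 86.3%) of the 512 mesenchymal cells of the same library were labelled, 35.5% (30.2 to 41.1%) of its 310 endothelial cells and 7.38% (3.43 to 13.5%) of its 122 macrophages. In the Lmx1b library 1 of 373 mural cells reached 1600 CPM (0.268%, 0.00679 to 1.48%). So did 54 of its 852 mesenchymal cells (6.34%), whose median was 78.8 CPM against 2863 CPM in the Pdgfra library. With so little tdTomato in its mesenchymal cells, the Lmx1b library gives no rate of false labelling for the Pdgfra library. Intervals here and below cover counting error alone and leave out how cells and animals vary.

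tdTomato in mural cells was not graded evenly. No tdTomato UMI was found in 32 mural cells, 95 held from 1 UMI to under 800 CPM, only 15 lay from 800 to 1600 CPM, 42 from 1600 to 3200 CPM and 93 above. The median of all mural cells was 1416 CPM, the lowest cell was at 0 and the highest at 7411 CPM. Mural cells of the Lmx1b library had a median of 60.6 CPM, and macrophages of the Pdgfra library one of 132 CPM. Unlabelled mural cells had a median of 126 CPM, held low by the limit of 800 CPM that chose them. The macrophage median covers all 122 macrophages, 9 of them labelled and 20 between the thresholds, so nothing is read from the 2 values side by side.

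**Figure D1:**
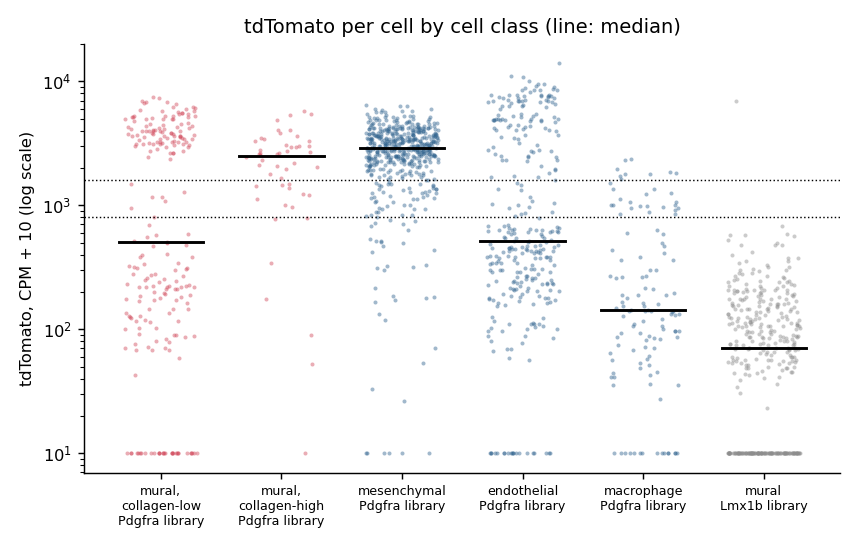
tdTomato of each cell (CPM + 10, log scale) by cell class, with the medians as lines and the thresholds of 800 and 1600 CPM dotted. Collagen-low mural cells (under 3% of UMIs from Col1a1, Col1a2, Col3a1, Dcn and Lum) form an upper and a lower group, as endothelial cells do, while mural cells of the Lmx1b library lie low with 1 exception.

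The labelled share was also taken within mural cells with much and with little contractile RNA. With the contractile class set at 5 or more UMIs per 10000 of Myh11 and Actg2, 45.3% (36.5 to 54.3%) of the 128 contractile-high and 51.7% (43.4 to 59.9%) of the 149 contractile-low cells were labelled, with overlapping intervals. Among labelled cells 43.0% (34.5 to 51.8%) were contractile-high and among unlabelled cells 52.8% (43.7 to 61.7%).

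The driver gene itself was rare in mural cells. Of 135 labelled cells 34 held a Pdgfra UMI (25.2%, 18.1 to 33.4%), as did 10 of 127 unlabelled cells (7.87%, 3.84 to 14.0%), at median depths of 15734 and 14405 UMIs. In 2 classes whose rules did not use the gene, the shares were 9.84% of macrophages (median 22886.5 UMIs) and 15.8% of endothelial cells (12682 UMIs). Of these classes 7.38% and 35.5% of cells were themselves labelled, so their shares are not a clean background. Averaged over all ways of thinning each cell to 3000 UMIs, the share expected to keep a Pdgfra UMI was 7.93% of labelled and 2.04% of unlabelled mural cells, 1.49% of macrophages and 4.17% of endothelial cells. For mesenchymal cells, which by their rule had to hold a Pdgfra UMI, it was 43.8%. The Cre transcript, counted as CreERT2, had 0 UMIs in the 135 labelled mural cells (share of cells 0%, 0 to 2.70%). It was seen in 6.10% (4.03 to 8.82%) of labelled mesenchymal cells.

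Summed together, the labelled mural cells carried more fibroblast transcripts and fewer mural ones than the unlabelled cells. UMIs were summed over each side, and a gene was counted as higher or lower when its fold passed 1.5 and the exact 95% counting interval of the fold, given in brackets, excluded 1. No test was possible with 1 library, cells not being replicates. Of 6054 genes at 20 CPM or more over both sides, 460 (7.6%) were higher and 335 (5.53%) lower in labelled cells, and the median log2 difference over all of them was -0.043.

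Fibroblast genes led the higher side, with 23 of 27 measured members higher and 0 lower (median log2 difference 1.44). Pdgfra stood at 70.6 against 5.16 CPM (13.7-fold, 7.32 to 28.9). Lum, the collagen-binding proteoglycan lumican, stood at 3616 against 317 CPM (11.4-fold, 10.5 to 12.4), Mfap4, a microfibril protein, at 131 against 6.19 CPM (21.2-fold, 12.0 to 41.4), and Postn, the matricellular protein periostin, at 2164 against 743 CPM (2.91-fold, 2.75 to 3.08). Fibril collagen Col1a1 stood at 21880 against 6036 CPM (3.63-fold, 3.56 to 3.70). Among the genes farthest above 1 outside that list were Hmcn1, hemicentin of the matrix (37.0-fold, 14.3 to 137), Tnn, tenascin N (15.05-fold, 12.1 to 18.9), Fndc1 (14.6-fold), Itm2a (13.3-fold), Gldn (18.1-fold), the collagen gene Col8a2 (15.2-fold), Svep1 (14.3-fold) and Itgbl1 (13.2-fold).

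Tendon, bone and blastema genes lay on the same side. All 4 measured tendon and joint genes were higher (median 2.18), among them Scx, the tendon transcription factor scleraxis (12.2-fold, 5.79 to 30.8), and Fmod, fibromodulin (5.54-fold, 5.03 to 6.12). Of 15 osteogenic genes 10 were higher and 0 lower (median 0.96). That median was -0.087 with labelled cells taken from 3200 CPM and -3.36 at no more than 5% mitochondrial UMIs. Runx2, the master regulator of osteoblasts, stood at 96.0 against 24.8 CPM (3.88-fold, 2.86 to 5.36). Of 12 nail and blastema genes 8 were higher and Msx2 was lower (median 1.38), with Mest 13.1-fold (7.39 to 25.7) and Sfrp2 3.25-fold (2.26 to 4.82) higher. Of 8 measured cartilage genes 2 were higher and 4 lower (median -0.50). Sox9 was 2.82-fold (1.98 to 4.12) higher and Col2a1 was lower at 311 against 613 CPM. Much of the unlabelled Col2a1 lay in a few collagen-rich cells described below.

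Pericyte and contractile genes were lower as groups. Of 20 measured pericyte genes 12 were lower and 0 higher (median -0.62). Genes of the mural rule were not taken out of the gene lists. Of the 8 rule genes 6 were lower and 0 higher (median -0.81), which is given as a description. Ndufa4l2, a mitochondrial protein abundant in pericytes, stood at 640 against 1239 CPM (0.517-fold, 0.488 to 0.547), and Cox4i2 at 292 against 615 CPM (0.476-fold). Of 19 contractile genes 13 were lower and 0 higher (median -0.66), among them Acta2 (0.616-fold, 0.601 to 0.631), Tagln, transgelin, at 1701 against 2915 CPM, and Sncg, gamma-synuclein (0.411-fold, 0.355 to 0.477). Rgs5, which the rule used, stood at 7019 against 12453 CPM. Of 15 basement membrane genes 4 were lower and 1 higher. Other named lower genes were Cysltr2, a leukotriene receptor (0.252-fold, 0.175 to 0.359), Naalad2 (0.377-fold), Nrarp, a feedback regulator of Notch (0.383-fold), Npy1r, a neuropeptide Y receptor (0.375-fold), Cd93 (0.417-fold), Mnd1 (0.389-fold) and Olfr558 (0.431-fold).

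Haemoglobin genes were the farthest on the lower side, Hbb-bs standing at 44.4 against 3466 CPM, and this rested on 1 cell. In 1 unlabelled cell 86.5% of 14483 UMIs were of haemoglobin genes, and the next highest mural cell had 0.111%.

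These summed differences followed a subset of the labelled cells. In each mural cell the share of UMIs from Col1a1, Col1a2, Col3a1, Dcn and Lum was taken, and after these values had been seen the cells were divided at 3%. At or above it, called collagen-high, lay 34 of 135 labelled cells (25.2%, 18.1 to 33.4%), 7 of 127 unlabelled cells (5.51%, 2.24 to 11.0%), 9 of the 15 cells between the thresholds, and 37 of the 373 mural cells of the Lmx1b library (9.92%, 7.08 to 13.4%). The 34 labelled collagen-high cells supplied 58.3% of all UMIs of the labelled side, so that they outweighed the other 101 cells in the sums.

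**Figure D2:**
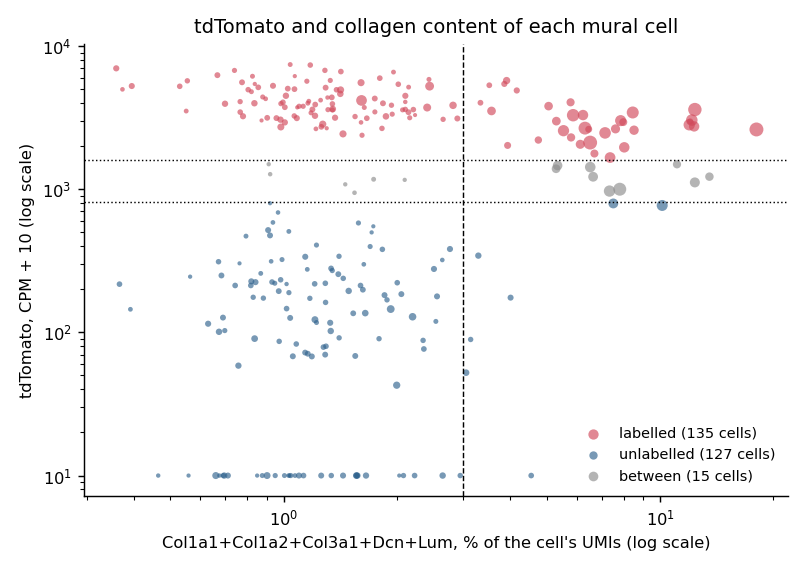
tdTomato (CPM + 10) against the share of UMIs from 5 collagen and proteoglycan genes in each of the 277 mural cells (log axes, point area by UMIs, dashed line at 3%, dotted lines at 800 and 1600 CPM). Left of the dashed line 101 labelled and 120 unlabelled cells form separate clouds, and right of it most cells are labelled and large.

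Labelled collagen-high cells were deep. They had a median of 53452 UMIs and 7308 genes, against 13899 UMIs and 3851 genes in labelled and 14205 UMIs and 3850 genes in unlabelled collagen-low cells. Of the 36 mural cells above 40000 UMIs, 34 were collagen-high and 25 were labelled. Of mural genes that neither the mural rule nor the collagen limit used, Pdgfrb and Acta2 were found in all 34 labelled collagen-high cells. Their medians there were 405 and 1275 CPM. These counts were not matched for depth, and Pdgfrb was also found in 86.1% of mesenchymal cells. With each cell randomly thinned to 3000 UMIs, Pdgfrb was found in 50% (32.4 to 67.6%) of labelled collagen-high cells. The thinned shares were 91.1% of labelled and 81.7% of unlabelled collagen-low cells, and 38.3% of mesenchymal cells. Rgs5 is part of the mural rule, so its presence is a description. In labelled collagen-high cells Rgs5 ran from 953 through a median of 3392 to 21031 CPM. Its medians in labelled and unlabelled collagen-low cells were 11559 and 12972 CPM.

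On the fibroblast side, 29 of the 34 cells had a Pdgfra UMI, and their summed level was 116 CPM against 176 CPM in mesenchymal cells. At 3000 UMIs a cell the expected share with one was 28.1%, against 43.8% of mesenchymal cells, whose rule required it. Postn ran from 264 through a median of 2463 to 8149 CPM in these cells, and its median was 1801 CPM in mesenchymal cells. Tnn was found in 32 of 34 at a median of 760 CPM, near the 689 CPM of mesenchymal cells, and in 18 of 101 labelled collagen-low cells. Scx was found in 25 of 34, against 2 of 101 labelled and 6 of 120 unlabelled collagen-low cells. These counts of cells were not matched for depth, whose medians were 53452, 13899 and 14205 UMIs. Tnn had moreover been named from the sums over all mural cells, which the collagen-high cells outweighed.

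Doublet scores moved with this subset. The 203 barcodes with the highest Scrublet scores held 5 of the 34 labelled collagen-high cells, 2 of the 101 labelled collagen-low cells and 0 of the 120 unlabelled ones, and the median score was 0.0973, 0.0514 and 0.0493. Scrublet's own threshold marked 0 barcodes and so had not worked. Whether a mural and a mesenchymal cell shared these droplets was not tested.

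The 7 unlabelled collagen-high cells carried other matrix genes. Their summed level of Ibsp, bone sialoprotein, was 33639 CPM although the median cell had 286 CPM, the highest reaching 74339 CPM. Col2a1 of cartilage summed to 4515 CPM and was found in 3 of the 7 cells. Lum had a median of 158 CPM there against 5096 CPM in labelled collagen-high cells, and Pdgfra was found in 1 of the 7.

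Below 3% collagen the sides were again set by tdTomato. The 101 labelled cells ran from 2371 through a median of 3948 to 7411 CPM of tdTomato and the 120 unlabelled cells from 0 through 126 to 788 CPM, with 6 cells between the thresholds. Median depth was 13899 against 14205 UMIs. Contractile-high cells made up 52.5% (42.3 to 62.5%) of the labelled side and 54.2% (44.8 to 63.3%) of the unlabelled side, and the labelled share was 43.8% of the contractile-high and 45.3% of the contractile-low cells.

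Of 6027 measured genes, 143 (2.37%) were higher and 79 (1.31%) lower in labelled collagen-low cells, 95.2% lay within 1.5-fold, and the median log2 difference was 0.015. The intervals were not adjusted for the number of genes. Of the 143 higher genes 71 (49.7%) were also among the 460 over all mural cells (15.4% of those), and of the 79 lower genes 35 (44.3%) were among the 335 (10.4%). The comparisons share most of their cells.

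**Figure D3:**
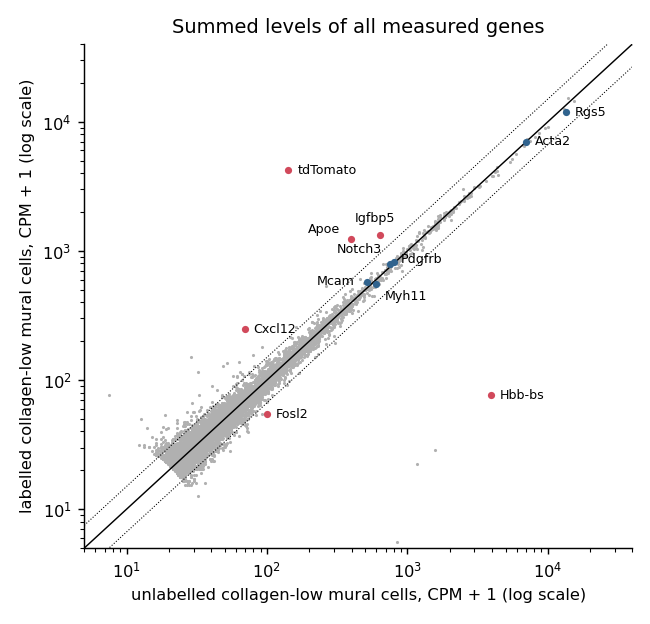
Summed level of every measured gene in labelled against unlabelled collagen-low mural cells (CPM + 1, log axes, dotted lines at 1.5-fold). tdTomato lies far above the diagonal, Hbb-bs far below it through 1 cell, and the mural genes Rgs5, Acta2, Notch3, Pdgfrb, Mcam and Myh11 lie near it.

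Mural genes lay near 1-fold. Of 21 measured pericyte genes 0 were higher and 0 lower (median -0.067). Rule genes were again left in the lists, and of the 8 rule genes 0 were higher and 0 lower (median -0.14). Pdgfrb stood at 784 against 752 CPM (1.04-fold, 0.962 to 1.13), with medians of 751 and 713 CPM per cell, and Cspg4, the pericyte proteoglycan NG2, at 172 against 176 CPM (0.978-fold, 0.826 to 1.16). Ndufa4l2 (0.797-fold, 0.747 to 0.851) and Cox4i2 (0.770-fold, 0.698 to 0.850) were lower in labelled cells by less than 1.5-fold.

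Of 19 contractile genes only Itga8, an integrin subunit of smooth muscle, was lower (0.497-fold, 0.290 to 0.829) and 0 were higher (median -0.097). Acta2 ran from 0 through a median of 4616 to 30093 CPM in labelled cells and from 0 through 4459 to 32274 CPM in unlabelled cells, ranges that overlapped throughout (1.01-fold, 0.987 to 1.04). Tagln stood at 3205 against 3267 CPM (0.981-fold). Rgs5, a regulator of G-protein signalling and part of the rule, ran from 858 through 11559 to 49902 CPM in labelled and from 1000.1 through 12972 to 46807 CPM in unlabelled cells.

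Basement membrane genes (15 measured), dissociation stress genes (19) and genes of hypoxia and glycolysis (10) had 0 higher and 0 lower members each. Of 8 Notch genes, Hey1, a Notch target, was higher at 41.5 against 21.8 CPM (1.91-fold, 1.25 to 2.94) and Nrarp lower at 43.5 against 69.4 CPM (0.626-fold, 0.457 to 0.852). Of 13 vascular signalling genes, Vegfb was higher (1.77-fold, 1.08 to 2.95) and the endothelin receptor gene Ednrb lower (0.543-fold, 0.391 to 0.745). Of 10 inflammation genes 3 were higher, the chemokine genes Cxcl12 and Ccl11 (1.67-fold, 1.31 to 2.14) and the adhesion gene Vcam1 (2.08-fold, 1.27 to 3.48). The sums were also taken without each gene's top cell, with the limit at 2% collagen and with every cell weighted equally. None of Hey1, Nrarp, Vegfb, Ednrb, Cxcl12, Ccl11 and Vcam1 was among the 53 higher and 33 lower genes that all of these settings shared.

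**Figure D4:**
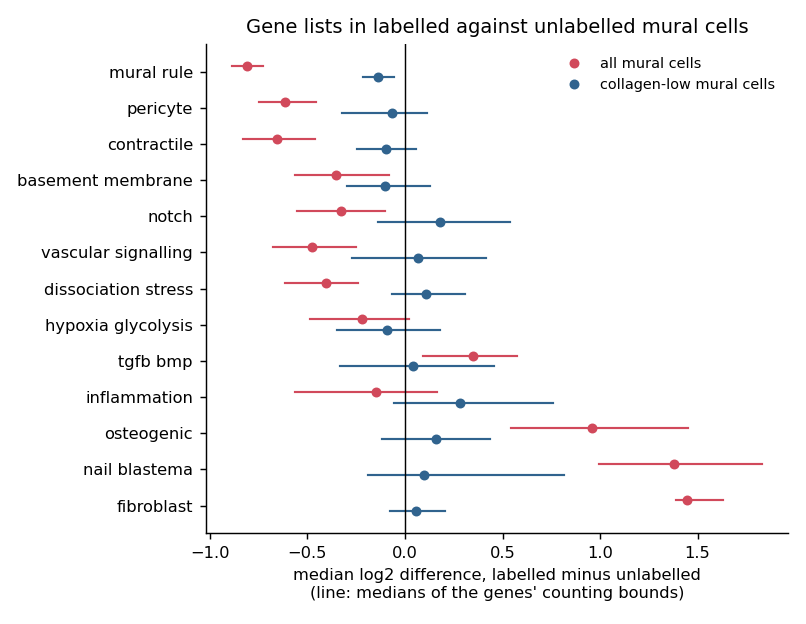
Median log2 difference (labelled minus unlabelled) of the measured genes of 13 lists over all mural cells and over collagen-low ones. Lines run from the median of the genes' lower counting bounds to that of their upper bounds. The mural rule list holds the 8 genes that chose the cells and is a description. Fibroblast, nail and blastema and osteogenic lists lie to the right and pericyte and contractile lists to the left over all cells, and the collagen-low medians of these lists lie between -0.10 and 0.16.

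The median of the fibroblast list lay near that of all genes among collagen-low cells, at 0.058 against 0.015. Of 20 measured members 3 were higher and 0 lower, against 2.37% higher and 1.31% lower of all 6027 measured genes. With the level minimum at 5 CPM, 5 of 27 members were higher and 2 lower. Lum, Dcn and the collagens Col1a1, Col1a2 and Col3a1 of that list set the 3% limit. Col3a1 ran from 776 through 6043 to 19937 CPM in labelled and from 276 through 5918 to 19124 CPM in unlabelled cells. Dcn, decorin, stood at 204 against 202 CPM (1.01-fold, 0.864 to 1.18). At the minimum of 20 CPM the higher members were Lum at 535 against 264 CPM (2.03-fold, 1.81 to 2.28) and Mfap5 (2.65-fold, 2.05 to 3.44). Loxl1, a lysyl oxidase, was also higher at 107 against 67.7 CPM (1.58-fold, 1.24 to 2.03). For Lum, 1 labelled cell held 29.1% of the labelled UMIs, and with the limit at 2% collagen its fold was 1.18 (1.02 to 1.36). Pdgfra had 11 UMIs in 5 of the 101 labelled cells (4.95%, 1.63 to 11.2%) and 9 UMIs in 9 of the 120 unlabelled cells (7.50%, 3.49 to 13.8%). At 3000 UMIs a cell the expected shares were 1.13% and 2.13%, against 1.49% of macrophages and 4.17% of endothelial cells.

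tdTomato chose the labelled cells and the 5 collagen and proteoglycan genes set the 3% limit, so their ratio follows from the choice of cells and is given as a description from which nothing is read. Per 1000 UMIs of the 5 collagen and proteoglycan genes there were 299 tdTomato UMIs in labelled collagen-low cells (291 to 308), 37.6 (37.2 to 38.0) in labelled mesenchymal cells, 10.6 (9.27 to 12.0) in unlabelled collagen-low cells and 74.1 (69.9 to 78.6) in macrophages. The labelled collagen-low ratio was 7.95 times the mesenchymal one, or 4.97 times it with mesenchymal cells from 3200 CPM. In labelled collagen-high cells the ratio was 34.9 (34.0 to 35.8), or 0.927 times it.

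Fibroblast genes that the collagen limit did not use were set beside the mesenchymal level in the same way. For 20 such genes that were at least 2 times higher in mesenchymal than in unlabelled cells, the level in labelled collagen-low cells above that in unlabelled ones was from -8.47% to 19.6% of the level in labelled mesenchymal cells, with a median of 1.47%. It was 0.931% for Pdgfra and 1.57% for Postn, and Loxl1 had the highest. In labelled collagen-high cells the median over these 20 genes was 65.3%, with -8.04% for Pi16. These genes vary together with the collagens, so the limit bears on them too. For tdTomato, whose level was fixed by the choice of cells, the corresponding values were 134% (4205 less 141, over 3043 CPM) and 89.7%.

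**Figure D5:**
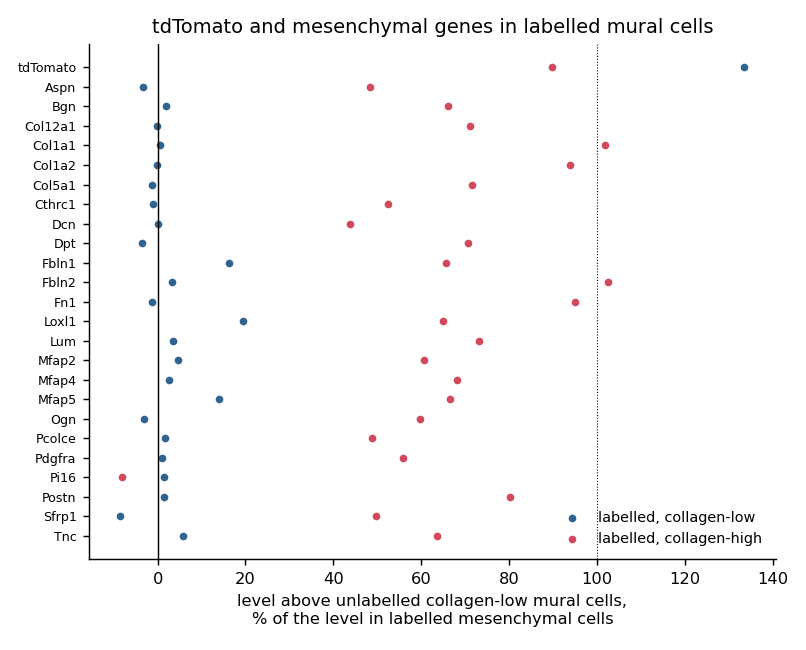
Level of each gene in labelled mural cells above that in unlabelled collagen-low ones, as a percentage of its level in labelled mesenchymal cells, for tdTomato and 24 fibroblast genes, of which Col1a1, Col1a2, Dcn and Lum set the 3% limit. In labelled collagen-low cells tdTomato stands at 134% and the other genes lie from -8.47 to 19.6% (median 1.15%). In labelled collagen-high cells all but Pi16 lie between 43.7 and 103%.

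Some of the named higher genes among collagen-low cells rested on few cells. Cxcl12, a chemokine of perivascular stroma (mm10, chromosome 6, 117168535 to 117181367, plus strand), stood at 248 against 68.2 CPM (3.63-fold, 2.94 to 4.51) from 382 and 116 UMIs. The median cell was at 0 on both sides, and 1 labelled cell held 66.0% of the labelled UMIs. Without the cell with most UMIs on each side, the fold was 1.48 (1.13 to 1.94).

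Apoe, apolipoprotein E (chromosome 7, 19696109 to 19699188, minus strand), was spread more widely. It ran from 0 through a median of 246 to 42556 CPM in labelled cells and from 0 through 169 to 4959 CPM in unlabelled cells, and was found in 87 of 101 and 99 of 120 cells. The ranges overlapped, and the summed fold was 3.11 (2.85 to 3.40), or 2.99 (2.71 to 3.29) without the top cell of each side. With the limit at 2% collagen the fold was 1.95 (1.76 to 2.15). Apoe summed to 12153 CPM in macrophages of the library, and the 6 macrophage markers to 46.7 CPM on the labelled and 58.2 CPM on the unlabelled side, with Adgre1 at 0 on both. The part of macrophage RNA in this result was not tested.

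The growth factor binding gene Igfbp5 (2.09-fold, 1.94 to 2.25), the growth factor gene Mdk, midkine (2.23-fold, 1.75 to 2.84), the proteoglycan gene Vcan, versican (1.99-fold, 1.63 to 2.44), Gas6, a ligand of TAM receptors (2.26-fold), Olfml3 (2.66-fold), Spon1 (2.37-fold), Fbln5 of elastic fibres (2.98-fold) and Fndc1 (2.30-fold) were the other named higher genes. Igfbp5 had a median of 114 CPM among labelled and 164 CPM among unlabelled cells, so that its median cell lay the other way. Mfap5, a protein of elastic microfibrils, and Lum completed them. Of the 12 named higher genes 11 remained past 1.5-fold without their top cells. With the limit at 2% collagen 9 remained, and Fbln5 (1.46-fold, 0.817 to 2.65), Lum (1.18-fold, 1.02 to 1.36) and Fndc1 (1.16-fold, 0.742 to 1.81) did not. At 1% 3 remained (Apoe, Mfap5 and Vcan). There 29 labelled and 43 unlabelled cells were left, and 211 (3.57%) of 5906 genes were higher and 109 (1.85%) lower. At 1% Cxcl12 was at 0.820-fold (0.366 to 1.76) and Apoe at 2.91-fold (2.24 to 3.82).

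On the lower side of the collagen-low comparison, Fosl2, an AP-1 transcription factor, was present in 46 labelled cells and 63 unlabelled ones, at 53.2 against 98.8 CPM (0.538-fold, 0.408 to 0.705). Naalad2 was found in 40 and 63 cells (0.556-fold, 0.402 to 0.763), and stood at 0.681 CPM in mesenchymal cells. Cysltr2 was found in 25 and 52 cells (0.509-fold, 0.344 to 0.742). Crispld2 (0.636-fold), Tiparp (0.591-fold), the protease gene Klk8 (0.578-fold), Olfr558 (0.663-fold) and Sncg (0.688-fold, 0.584 to 0.809) completed the named lower genes with Ednrb and the 3 haemoglobin genes. Sncg, chosen by its interval, did not pass 1.5-fold. Of the 9 genes other than haemoglobin 8 were lower by 1.5-fold without top cells, 7 with the limit at 2% collagen and 2 (Naalad2 at 0.465-fold and Olfr558 at 0.620-fold) at 1%. Without top cells Hba-a1, Hba-a2 and Hbb-bs stood at 1.00, 0.736 and 0.80-fold.

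The named folds were also taken within the contractile classes, without a test of the difference between them. In contractile-low cells (48 labelled, 55 unlabelled) Cxcl12 was 6.38-fold (4.76 to 8.69) and Igfbp5 4.05-fold (3.65 to 4.51), and in contractile-high cells (53 and 65) they were 0.963-fold (0.654 to 1.41) and 0.591-fold (0.516 to 0.676). In the contractile-low class 1 cell held 76.4% of the labelled Cxcl12 UMIs, and without top cells Cxcl12 was 2.34-fold (1.55 to 3.59) there and 1.02-fold (0.667 to 1.57) in the contractile-high class. Igfbp5, of whose labelled UMIs 1 contractile-low cell held 35.4%, was then 4.05-fold (3.56 to 4.62) and 0.631-fold (0.544 to 0.731). Apoe was 4.04-fold (3.57 to 4.58) in the former and 2.10-fold (1.85 to 2.40) in the latter, Mfap5 3.92-fold and 2.40-fold, and Mdk 2.03-fold and 2.42-fold. Ednrb was lower in both, at 0.483-fold (0.309 to 0.740) and 0.606-fold (0.366 to 0.982), as was Fosl2 at 0.614-fold and 0.497-fold. Crispld2 was lower in contractile-high cells (0.473-fold, 0.390 to 0.571) and stood at 1.12-fold (0.875 to 1.43) in contractile-low ones. In all, 9 of the 12 named higher and 10 of the 12 named lower genes kept their direction in both classes. The genes had been picked from sums over both classes, so these counts are a description from which nothing is read. Among the 9, the contractile-high intervals of Fbln5 (1.02-fold), Lum (1.06-fold), Spon1, Gas6 and Fndc1 spanned 1. Those of Apoe, Mfap5, Mdk and Vcan did not. The 10 include the haemoglobin genes, whose gap rested on 1 cell. Olfml3 was 4.77-fold in contractile-low and 0.811-fold in contractile-high cells.

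Mural cells of the Lmx1b library below 3% collagen, of which 335 of 336 were under 800 CPM of tdTomato, gave a further level for these genes, a comparison added after the values had been seen. On the log2 scale all 12 named higher genes lay nearer to the labelled than to the unlabelled level of the Pdgfra library there. Cxcl12 summed to 228 CPM (248 in labelled, 68.2 in unlabelled cells), Igfbp5 to 1425 CPM (1330 and 637), Mdk to 122 CPM (138 and 61.8) and Apoe to 762 CPM (1239 and 398). Of the 9 named lower genes other than haemoglobin, 5 lay nearer to the labelled level on the log2 scale, among them Fosl2 at 52.4 CPM (53.2 and 98.8) and Naalad2 at 46.1 CPM (39.6 and 71.2). Ednrb, at 264 CPM, was above both sides. The genes had been picked for their gap between the sides, and the share of all measured genes nearer to the labelled level was not taken. These counts are thus a description and not a result about the named genes. Line, animals and library cannot be told apart in these values.

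The comparison over all mural cells depended on the mitochondrial limit. With at most 5% mitochondrial UMIs and at least 1000 genes only 20 labelled and 23 unlabelled cells were left, 2 and 3 of them collagen-high, and the median of the fibroblast list was -0.16 and that of the pericyte list 0.21. With every cell given the same weight, the fibroblast median was 1.04, the contractile one -0.21 and the pericyte one -0.15.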

How the data were processed

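Single-cell libraries were measured in 2 mouse lines. The files hold whole UMI counts of each gene in each barcode, which the authors obtained with Cell Ranger (version 4.0.0, from the header of the matrix files) on mm10 to which tdTomato had been added, per the labels' protocols. How barcodes were kept as cells was not given in the sources used here. Of 28001 features, 27722 matched a gene ID of GENCODE vM21, used for coordinates.

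Barcodes with at least 500 genes, at most 10% mitochondrial UMIs and at least 3000 UMIs were kept (1612 in the Pdgfra and 2325 in the Lmx1b library). Mesenchymal cells had at least 1% collagen UMIs (5 genes), at least 1 Pdgfra UMI, under 10 UMIs per 10000 of the 6 mural genes, under 2 of Pecam1 and Cdh5 and under 2 of C1qa, C1qb, C1qc and Csf1r. Endothelial cells had at least 2 per 10000 and 2 UMIs of Pecam1 and Cdh5, and macrophages at least 5 per 10000 of the macrophage genes, without the other programmes. These class rules and the 3% collagen limit were set after the data had been seen, and the members, rule and 25 gene lists were chosen with earlier results of these data known. The list gene Snorc was not found, and 2 genes were matched by older symbols.

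UMIs were summed per side and given as CPM, and log2 differences used a pseudocount of 1 CPM. Folds carry exact 95% conditional binomial intervals, shares Clopper-Pearson ones. Named genes were the 12 whose interval lay farthest above 1 and the 12 farthest below, among genes at 20 CPM or more found in at least 20% of the cells of the higher side and moving the same way by the mean of cells. List members past 1.5-fold and highly expressed members were added. The contrast was tested on simulated data, drawn as Poisson counts of the summed sides without variation between cells. That test therefore does not bear on genes whose UMIs lie in few cells. Scrublet (scanpy 1.11.5) scored all barcodes, and the top 0.8% per 1000 barcodes (203) were removed only as an alternative. Python 3.11.15, numpy 2.4.6 and scipy 1.17.1 were used. Alternatives changed thresholds, filters, weighting, cell mix, scaling and level minimum.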

Additional observations from a re-analysis of the deposited data

How the results depend on the processing

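With the threshold at 3200 CPM the labelled share was 33.6%. Over all mural cells, the 460 higher and 335 lower genes became 296 and 159 with labelled cells from 3200 CPM, 211 and 109 under 1% collagen, 143 and 79 under 3% collagen, and 836 and 563 with a minimum of 5 CPM. The lower genes were 216 with a 6-gene sum of at least 30, 112 with every cell weighted equally and 188 with the same contractile mix on both sides.

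The fibroblast median of 1.44 was -0.16 with at most 5% mitochondrial UMIs, 1.25 with the sum of at least 30, 0.94 from 3200 CPM, 1.76 with unlabelled cells under 400 CPM, 1.04 with equal weights, 1.26 with the same mix, 0.22 under 1% collagen, 0.058 under 3% and 1.76 without each gene's top cell. In the same order where it moved, the contractile median was -0.29 (5% mitochondrial), -0.28 (3200 CPM), -0.21 (equal weights), -0.21 (same mix), -0.25 (1% collagen) and -0.097 (3% collagen). The pericyte median was 0.21 (5% mitochondrial), -0.22 (3200 CPM), -0.15 (equal weights), 0.063 (1% collagen) and -0.067 (3% collagen).

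Other lists changed sign. At 5% mitochondrial UMIs the medians were 0.44 for Notch, 0.54 for dissociation stress, -3.36 for osteogenic and 0.44 for vascular signalling genes. Under 1% collagen they were 0.11 for basement membrane, 0.055 for Notch, 0.088 for stress and 0.21 for vascular genes, and under 3% 0.18 for Notch, 0.11 for stress and 0.068 for vascular genes. The osteogenic median was -0.087 from 3200 CPM. Genes that reversed over all mural cells were Tnn (-1.37), Mfap4 (-0.11), Fndc1 (-0.60), Itm2a (-0.63) and Fbln2 (-3.76) under 1% collagen, and Mfap4 (-0.12), Itgbl1 (-0.19), Fbln2 (-0.64), Hba-a2 (0.97) and Mnd1 (1.48) at 5% mitochondrial UMIs, all as log2 differences.

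Among collagen-low cells, the 143 higher and 79 lower genes became 255 and 262 at 5% mitochondrial UMIs (18 against 20 cells), 232 and 157 with equal weights and 309 and 168 from 5 CPM. The fibroblast median was 0.22 at a 1% and 0.23 at a 5% collagen limit, and the contractile median -0.84 at 5% mitochondrial UMIs and -0.25 at 1% collagen. Under 1% collagen Cxcl12 (-0.28), Olfml3 (-0.13), Mdk (-0.018), Gas6 (-0.71), Fndc1 (-0.60) and Tiparp (0.23) reversed. Hba-a1 was 0.090 with the sum of at least 30, 0.0034 without top cells and 0.093 without the haemoglobin cell, and Hba-a2 was 0.59 at 5% mitochondrial UMIs.

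With mesenchymal cells from 3200 CPM as the reference, the ratio of tdTomato to collagen UMIs was 1.06 times the mesenchymal one in labelled cells (1.69 with those from 1600 CPM, 1.78 without top doublet scores) and 4.97 times in collagen-low ones (7.95). With 1 random thinning to 3000 UMIs, drawn separately for each set of cells, Pdgfra was found in 11.1% of labelled, 0.787% of unlabelled, 0.990% of labelled collagen-low and 3.33% of unlabelled collagen-low cells. Averaged over all thinnings, an alternative added after seeing the data, these shares were 7.93%, 2.04%, 1.13% and 2.13%. For none of these changes was the cause tested, beyond the smaller number of cells or genes that a setting leaves. No paired analysis was possible because there was 1 library per line and both sides came from the same library. The sampled depth and cell number limit genes near 20 CPM, and 1 library gives no measure of how animals vary.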

Other observations

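Among collagen-low mural cells, 53 genes were higher and 33 lower by 1.5-fold in the sums, without each gene's top cell, with the limit at 2% collagen, and with every cell weighted equally. The genes named here were chosen after their values were seen. Cxcl14, a chemokine of skin and stroma, had 231 UMIs in labelled and 47 in unlabelled cells (5.42-fold, 3.95 to 7.59, and 5.82-fold without the top cells). Igf1, insulin-like growth factor 1, had 176 and 53 UMIs (3.66-fold, 2.68 to 5.08). It was 2.12-fold without the top cells, and 1 labelled cell held 55.7% of the labelled UMIs. Cxcl14 and Igf1 were each found in under 20% of the labelled cells, the minimum for the named genes. Basp1 (2.47-fold, 1.57 to 3.97), the collectin gene Colec11 (2.48-fold, 1.51 to 4.2) and the receptor gene Fgfr1 (1.68-fold, 1.22 to 2.32) were also higher. On the lower side were Fbxl22, an F-box protein of muscle (18 and 53 UMIs, 0.375-fold, 0.207 to 0.650), and the neuropeptide Y receptor gene Npy1r (50 and 91 UMIs, 0.606-fold, 0.420 to 0.865).

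The labelled share of mural cells was 42.2% (29.9 to 55.2%) of 64 cells under 10000 UMIs, 44.4% (35.9 to 53.2%) of 135 cells from there to 20000 UMIs, 54.8% (38.7 to 70.2%) of 42 cells up to 40000 and 69.4% (51.9 to 83.7%) of 36 cells above.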
